A study of Mus musculus with 4 samples.

Results

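The triglyceride assembly enzymes described here are encoded by 10 genes, taken by symbol from the 18781 genes of the expression table: Gpd1, Pck1, Gpam, Agpat2, Agpat3, Lpin1, Lpin2, Dgat1, Dgat2 and Mogat1. All 10 were in the table, and all 10 passed the filter on low values, a level of at least 1 CPM in at least 2 libraries, which 12797 genes passed. RNA came from mature adipocytes of C57BL/6 mice at postnatal day 30. The dermal adipocytes (dWAT) were isolated from dorsal skin and the inguinal adipocytes (sWAT) from the inguinal fat pad, by collagenase IV and dispase II digestion and flotation, with 2 libraries per depot. No treatment or genetic change was labelled in either group, and the labels do not say whether libraries came from separate animals or from pooled ones, so a p-value reflects the variation among these libraries alone, which may be technical.

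Adipocytes store fatty acids as triglyceride. In the glycerol phosphate pathway, glycerol 3-phosphate receives a first fatty acid from a GPAT enzyme and a second from an AGPAT enzyme, a lipin removes the phosphate, and a DGAT enzyme adds the last fatty acid to the resulting diacylglycerol. The monoacylglycerol pathway reaches diacylglycerol directly, by adding a fatty acid to monoacylglycerol. In white fat the glycerol 3-phosphate comes from glucose and from smaller precursors such as pyruvate. The dehydrogenase encoded by Gpd1 forms it in both cases, and the route from smaller precursors also uses the carboxykinase encoded by Pck1 (glyceroneogenesis).

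The libraries held between 10127125 and 12730013 reads assigned to genes, and 3 reads corresponded to between 0.253 and 0.291 CPM. Levels are normalized CPM (reads of a gene relative to all reads assigned in its library), with mean ± SD over the 2 libraries of a depot (n = 2). A log2 fold change is the dermal minus the inguinal mean of log2(CPM + 0.5), and is negative where the inguinal mean is higher. Transcripts that define mature adipocytes were abundant in every library, with Adipoq, which encodes adiponectin, at means of 3854 CPM (dermal) and 3144 CPM (inguinal). Of 10 mature adipocyte markers 2 passed, or 20% beside 16.4% of all tested genes. Both were higher in dermal adipocytes, and 3 of the 10 had negative estimates. These 2 were Plin1, which encodes the main coat protein of the lipid droplet, and the leptin gene Lep, with log2 fold changes of 0.96 and 1.16 (limma, adjusted p = 0.0117 and 0.00437), and the Plin1 call ended without dermal replicate 2 (0.0850). Markers of other cells differed between the preparations. The summed level of 9 endothelial markers was 432 and 470.3 CPM in dermal against 1502 and 2286 CPM in inguinal adipocytes, and that of 10 macrophage markers was 1718 and 1619 CPM against 569 and 523 CPM. All 9 and all 10 of these markers passed the depot test. Genes of brown and beige adipocytes passed as higher in inguinal libraries in 7 of 8 tested cases, and their defining marker Ucp1 was at 0.0910 and 0 CPM in the dermal libraries and at 26.4 and 61.6 CPM in inguinal adipocytes. Ucp1 passed the filter on low values only through its inguinal levels, which fixed the direction of its estimate. Summed keratinocyte markers were at 79.5 and 49.6 CPM against 23.9 and 15.9 CPM, with 4 of 5 tested markers higher in dermal libraries. Of these, Krt5, Krt15 and Dsp passed the filter only through their dermal levels, so their direction was fixed in the same way. Most of each keratinocyte sum was Trp63, at 46.2 and 34.7 CPM in dermal against 21.2 and 14.2 CPM in inguinal libraries. Red blood cell markers were at 82.2 and 49.8 CPM against 199 and 380.4 CPM, with 5 of 6 higher in inguinal libraries. Among them Hba-a1 and Hba-a2 held identical reads in every library, so the sums and the calls count the same values more than once. Immediate early genes, which respond to handling of tissue, summed to 1203 and 1917 CPM against 3723 and 4367 CPM, with 5 of 8 higher in inguinal libraries. Fewer cells of a type and less RNA per cell cannot be told apart in such bulk libraries, and the part of these cells in the results below was not tested.

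Of the 10 enzyme genes, 1 passed the test for a depot difference. Gpam, which encodes the mitochondrial GPAT that adds the first fatty acid, was higher in inguinal libraries, and the other 9 did not pass (two-sided limma test, p adjusted over all tested genes by Benjamini-Hochberg, threshold 0.05). This share of 10% stood beside 16.4% of all tested genes, 8.8% with the inguinal and 7.56% with the dermal level higher. No member passed as higher in dermal libraries, and this count of 0 was also 0 at an unadjusted p below 0.05 and with edgeR and DESeq2 on the recovered reads. At an unadjusted p below 0.05 stood 1 of the 10 members, beside 32.5% of all tested genes. The median log2 fold change of the 10 genes was -0.23, against 0.02 over all tested genes. This median was not stable: it turned to 0.02 without inguinal replicate 1, was -0.39 without inguinal replicate 2 and -0.15 and -0.16 without a dermal library, and came to -0.06 with quantile normalization and -0.14 without the authors' further scaling factor. The libraries of the depots did not overlap for 3 of the 10 genes, Gpam, Agpat3 and Mogat1, each with both inguinal libraries on top, whereas 61.8% of all tested genes showed no overlap.

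**Figure D1:**
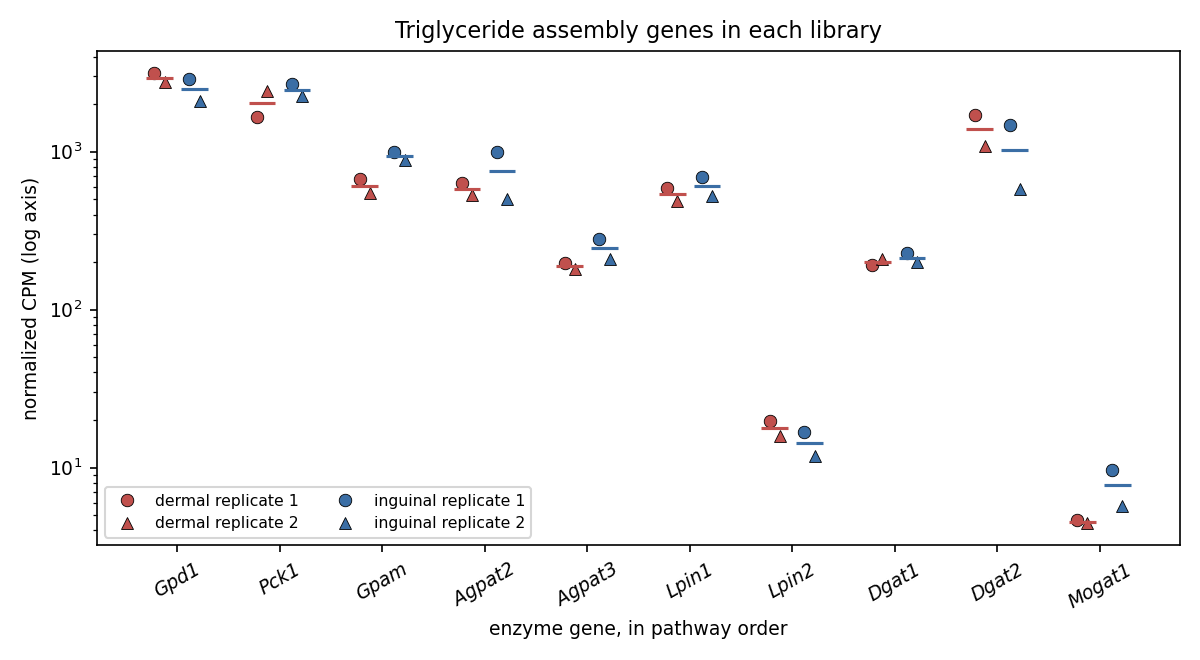
Normalized CPM (log axis) of each enzyme gene in every library, with circles for replicate 1, triangles for replicate 2, red for dermal, blue for inguinal, and short lines at the depot means. Only Gpam, Agpat3 and Mogat1 have both inguinal libraries above both dermal libraries, and the levels span from 4.46 CPM for Mogat1 to 3139 CPM for Gpd1.

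**Figure D2:**
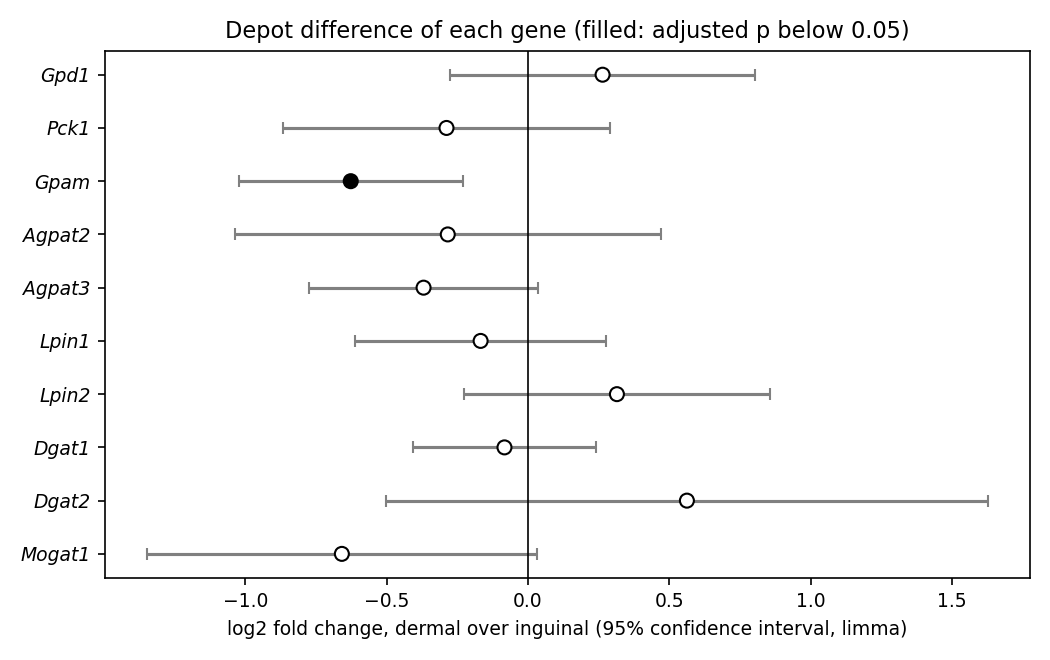
Log2 fold change, dermal over inguinal, of each enzyme gene with its 95% confidence interval from limma, with a filled point where the adjusted p was below 0.05. The interval of Gpam, -1.02 to -0.23, lies wholly below 0, and the other 9 intervals include 0.

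The genes that supply glycerol 3-phosphate had the most transcript per length of all members in both depots, and neither passed the test. Gpd1 (chromosome 15, 99717515 to 99725005, plus strand, in GENCODE M21 on GRCm38), which encodes the cytosolic glycerol 3-phosphate dehydrogenase, measured 3139 and 2754 CPM in dermal adipocytes against 2876 and 2085 CPM in inguinal adipocytes. Dermal replicate 2 lay below inguinal replicate 1, so the depots overlapped. This gave a log2 fold change of 0.26 (95% confidence interval -0.28 to 0.80, adjusted p = 0.465). The gene Gm16537 on the opposite strand shares 384 exon bases with Gpd1, and the sources used here do not give whether counting used the strand.

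Pck1 (chromosome 2, 173153048 to 173159273, plus strand), which encodes cytosolic phosphoenolpyruvate carboxykinase, measured 1652 and 2436 CPM in dermal adipocytes against 2678 and 2241 CPM in inguinal adipocytes. The lowest library was dermal replicate 1, and the remaining dermal library lay between the inguinal ones. The log2 fold change was -0.29 (95% confidence interval -0.87 to 0.29, adjusted p = 0.455), and it was -0.0083 without dermal replicate 1. The ratio of Pck1 to Gpd1 within a library, which does not depend on library scaling, was 0.526 and 0.885 in dermal adipocytes against 0.931 and 1.08 in inguinal adipocytes. Both inguinal ratios were above both dermal ones, though dermal replicate 2 (0.885) lay close to inguinal replicate 1 (0.931). The dermal minus the inguinal mean of the log2 ratio was -0.55, and it ranged from -0.93 to -0.18 with each library left out. This difference was not tested. Of the 4 ratios described here 2 separated the depots, this one and that of Lpin1 to Lpin2, beside 61.8% of all tested genes.

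The promoter of Pck1 is shown because cyclic AMP is known to induce this gene through a response element close to its start. RefSeq promoters on GRCm38.p6, from 250 bases before to 50 bases after an annotated start, were matched for 7 of the 10 members, with 10 starts in all. Motifs were searched as letters on both strands, and positions count from the start, with negative positions before it. Capitals mark TTACGTCA, a variant of the cyclic AMP response element that was added to the search after the sequence was seen, at -93 to -86 on the plus strand of the gene. That motif was found in 0.499% of 32851 promoters, and the full palindrome TGACGTCA, found in 1.79% of promoters, was not in this window.
Pck1, chr2:173152823-173153122, plus strand: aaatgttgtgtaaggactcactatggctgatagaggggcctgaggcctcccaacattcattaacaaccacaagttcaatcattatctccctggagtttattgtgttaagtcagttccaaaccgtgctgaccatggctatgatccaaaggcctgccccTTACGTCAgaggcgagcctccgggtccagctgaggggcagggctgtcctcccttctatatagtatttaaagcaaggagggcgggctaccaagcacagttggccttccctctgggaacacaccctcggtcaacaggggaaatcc

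Gpam (chromosome 19, 55067268 to 55127238, minus strand) measured 669.5 and 548 CPM in dermal adipocytes against 995 and 879.8 CPM in inguinal adipocytes. Both inguinal libraries were above both dermal ones, with means of 609 ± 86.0 and 937 ± 81.3 CPM, or 1.54-fold higher in inguinal. The fitted difference was a log2 fold change of -0.63 (SE 0.16, 95% confidence interval -1.02 to -0.23, adjusted p = 0.0481). The estimate lay between -0.77 and -0.48 with each library left out in turn. The call was close to the threshold: it ended without dermal replicate 1 (adjusted p = 0.113), dermal replicate 2 (0.347) or inguinal replicate 1 (0.0746), and held without inguinal replicate 2 (0.0273). It also ended without a filter (0.0846), without the intensity trend (0.0820), with quantile normalization (0.0726), without the authors' further scaling factor (0.0577) and with edgeR on the recovered reads (0.0520), and held with DESeq2 (0.00847).

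Other GPAT genes had estimates of the same sign. Agpat9, the older symbol of Gpat3, encodes an endoplasmic reticulum GPAT that is induced in fat cells, and measured 318 and 319 CPM in dermal adipocytes against 440 and 391 CPM in inguinal adipocytes (log2 fold change -0.38, 95% confidence interval -0.69 to -0.06, adjusted p = 0.101). Agpat6, the older symbol of Gpat4, encodes a related enzyme and measured 151 and 153 CPM in dermal adipocytes against 200.3 and 203 CPM in inguinal adipocytes (log2 fold change -0.41, adjusted p = 0.0633). For both genes each inguinal library was above each dermal one, but the test was not passed. The summed level of Gpam, Agpat9 and Agpat6 was 1139 and 1020 CPM in dermal adipocytes against 1635 and 1474 CPM in inguinal adipocytes. The CPM share of Gpam was 58.8% (dermal replicate 1), 53.7% (dermal replicate 2), 60.8% (inguinal replicate 1) and 59.7% (inguinal replicate 2). These shares are not corrected for exon length, which was 6347 bases for Gpam, 3267 for Agpat9 and 5518 for Agpat6. Per kilobase of exon, the dermal means were 95.9 CPM for Gpam, 97.6 for Agpat9 and 27.5 for Agpat6. The inguinal means per kilobase were 148, 127 and 36.6 CPM in the same order. Gnpat, which encodes the acyltransferase of ether lipid synthesis in peroxisomes, had a log2 fold change of 0.01 with a 95% confidence interval of -0.31 to 0.34, and Gpat2 had too few reads to be tested. In the list of 4 tested GPAT genes, 1 was therefore higher in inguinal libraries and 0 in dermal ones, beside 16.4% of all genes, with 3 and 0 at an unadjusted p below 0.05, beside 32.5% of all genes, and the median log2 fold change was -0.39. With edgeR 0 of the 4 passed, and with DESeq2 only Gpam did.

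Gpam has 2 annotated starts in RefSeq, and both promoters are shown because Gpam was the member that passed. Capitals mark TTGCNNAA, a C/EBP-like motif found in 10.8% of promoters, at positions 9 to 16 after the first start, and AGGTCA, a nuclear receptor half-site found in 16.3% of promoters, at -196 to -191 before the second. The GC content was 55.7% with 9 CpG dinucleotides at the first and 68% with 30 CpG dinucleotides at the second. Neither window held CACGTG (7.15% of promoters), TCACNCCAC (1.24%), TATAAA (13.6%) or a direct repeat of AGGTCA with 1 base between the copies (0.0396%). The GC box GGGCGG, found in 35.7% of promoters, was on the minus strand of the second window at -16 to -11, and in the Pck1 window at -16 to -11 on the plus strand, with no overlap with the capitals. The level of Gpam is a sum over both starts, which the gene counts do not separate.
Gpam first start, chr19:55127189-55127488, minus strand: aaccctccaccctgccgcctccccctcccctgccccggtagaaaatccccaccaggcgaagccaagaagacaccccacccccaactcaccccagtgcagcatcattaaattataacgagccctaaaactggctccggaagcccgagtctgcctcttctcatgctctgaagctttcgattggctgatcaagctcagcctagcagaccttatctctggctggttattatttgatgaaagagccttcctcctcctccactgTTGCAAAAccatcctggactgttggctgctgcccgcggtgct
Gpam second start, chr19:55099428-55099727, minus strand: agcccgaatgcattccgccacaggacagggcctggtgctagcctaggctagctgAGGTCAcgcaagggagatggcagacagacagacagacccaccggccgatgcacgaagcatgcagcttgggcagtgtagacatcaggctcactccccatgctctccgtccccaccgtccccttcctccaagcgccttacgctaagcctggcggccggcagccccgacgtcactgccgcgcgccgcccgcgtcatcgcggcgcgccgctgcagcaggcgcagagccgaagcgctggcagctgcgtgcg

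Over the 4 libraries, the genes closest in profile to Gpam, by Euclidean distance between centred log2(CPM + 0.5) values among 8724 tested genes with a mean of at least 10 CPM, were Fam120aos (distance 0.00953), Herc6 (0.0412) and Psmb8 (0.0665). Psmb8 encodes a subunit of the immunoproteasome and Herc6 a HECT-type ubiquitin ligase. In all, 92 genes lay within a distance of 0.2 of Gpam, so a likeness of this size over 4 libraries was shared by many genes.

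The AGPAT genes, which encode the enzymes that add the second fatty acid, gave 0 calls in either direction among 6 tested genes, beside 16.4% of all tested genes. They also gave 0 at an unadjusted p below 0.05, beside 32.5% of all genes, and 0 with edgeR and DESeq2. Agpat2 (chromosome 2, 26593057 to 26604417, minus strand), whose human counterpart is mutated in a form of congenital generalized lipodystrophy, had the highest mean CPM of them. It measured 636 and 531 CPM in dermal adipocytes against 995 and 503 CPM in inguinal adipocytes. Inguinal replicate 1 was the highest library and inguinal replicate 2 the lowest, so the dermal values lay inside the inguinal range. The log2 fold change was -0.28 (95% confidence interval -1.04 to 0.47, adjusted p = 0.579). It turned to 0.21 (adjusted p = 0.466) without inguinal replicate 1 and reached -0.78 (adjusted p = 0.0179) without inguinal replicate 2, so these 2 libraries decide its direction. Egfl7, an endothelial gene on the opposite strand, overlaps Agpat2 in position and shares 0 exon bases with it.

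Agpat3 (chromosome 10, 78269178 to 78352489, minus strand), which encodes an acyltransferase that also makes phospholipids with polyunsaturated chains, measured 196 and 179.6 CPM in dermal adipocytes against 279.8 and 210.5 CPM in inguinal adipocytes. Both inguinal libraries were above both dermal ones, but the inguinal libraries differed more from each other than inguinal replicate 2 differed from the dermal libraries. The log2 fold change was -0.37 (95% confidence interval -0.77 to 0.04, adjusted p = 0.184), and it passed only without inguinal replicate 2 among the libraries left out (-0.57, adjusted p = 0.0269). The ratio of Agpat2 to Agpat3 was 3.24 and 2.96 in dermal adipocytes against 3.56 and 2.39 in inguinal adipocytes, and the depots overlapped.

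The lipins, which remove the phosphate from phosphatidate, showed no call. Lpin1 (chromosome 12, 16535669 to 16610966, minus strand), whose loss causes lipodystrophy in the fld mouse, measured 586 and 489 CPM in dermal adipocytes against 689 and 524 CPM in inguinal adipocytes (log2 fold change -0.17, 95% confidence interval -0.61 to 0.28, adjusted p = 0.578). Lpin2 (chromosome 17, 71182560 to 71249817, plus strand), the lipin best known from liver and macrophages, measured 19.6 and 15.9 CPM in dermal adipocytes against 16.8 and 11.8 CPM in inguinal adipocytes, from 122 to 215 reads (log2 fold change 0.31, 95% confidence interval -0.23 to 0.85, adjusted p = 0.381). Both genes overlapped between the depots. The ratio of Lpin1 to Lpin2, by contrast, was 29.9 and 30.7 in dermal adipocytes against 41.0 and 44.3 in inguinal adipocytes, a difference of -0.49 on the log2 scale that ranged from -0.55 to -0.44 with each library left out. The depots did not overlap in this ratio, and the difference was not tested. Macrophage markers were higher in dermal libraries, as given above, and the part of these cells in the ratio was not tested.

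Promoters of the lipin genes are shown because the paralogues stood at such different levels. The Lpin1 window had a GC content of 55.3% with 2 CpG dinucleotides, and the first Lpin2 window 68.7% with 37. The second Lpin2 window, not shown, had 80.7% with 54, and the third, also not shown, 45% with 4. The contrast with Lpin1 thus depends on the start, and the gene counts do not separate the starts. A link between these windows and the levels was not tested. Capitals mark AGGTCA at -74 to -69 before the Lpin1 start, and CACGTG, the palindromic E-box, at -9 to -4 before the first Lpin2 start.
Lpin1, chr12:16610917-16611216, minus strand: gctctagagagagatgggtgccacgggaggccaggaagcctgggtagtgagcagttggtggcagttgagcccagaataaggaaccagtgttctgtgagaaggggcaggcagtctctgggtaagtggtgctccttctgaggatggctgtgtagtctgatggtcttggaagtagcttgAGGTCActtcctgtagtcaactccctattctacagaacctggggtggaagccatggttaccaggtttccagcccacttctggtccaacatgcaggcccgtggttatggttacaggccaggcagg
Lpin2 first of 3 starts, chr17:71183282-71183581, plus strand: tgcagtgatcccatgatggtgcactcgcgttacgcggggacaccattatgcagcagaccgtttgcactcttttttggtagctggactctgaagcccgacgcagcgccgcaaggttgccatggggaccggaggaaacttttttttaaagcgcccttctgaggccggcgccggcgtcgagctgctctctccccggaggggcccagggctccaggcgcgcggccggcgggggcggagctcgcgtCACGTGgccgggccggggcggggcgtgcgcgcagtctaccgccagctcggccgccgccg

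Of 6 tested phosphatidate phosphatase genes, 1 was higher in inguinal libraries and 0 in dermal ones, or 16.7% beside 16.4% of all tested genes. The counts were 1 and 1 at an unadjusted p below 0.05, beside 32.5% of all genes, and the same 1 and 0 with edgeR and DESeq2. The median log2 fold change was 0.20. The gene that passed was Ppap2a, the older symbol of Plpp1, which encodes a lipid phosphate phosphatase of the plasma membrane. It measured 16.3 and 16.7 CPM in dermal adipocytes against 25.1 and 35.5 CPM in inguinal adipocytes (log2 fold change -0.84, adjusted p = 0.0373), and Mtrex overlaps it on the opposite strand. This call ended without dermal replicate 1 (adjusted p = 0.136), dermal replicate 2 (0.119) or inguinal replicate 2 (0.0673). Its relative Ppap2b, now Plpp3, overlapped between the depots, at 201 ± 11.5 and 192 ± 33.2 CPM. Ctdnep1 and Cnep1r1, which encode the phosphatase that activates lipins and its regulatory subunit, measured 17.3 ± 2.32 and 24.5 ± 2.57 CPM in dermal adipocytes against 15.7 ± 1.34 and 20.5 ± 2.47 CPM in inguinal adipocytes. Neither passed (adjusted p = 0.667 and 0.352), and 0 passed at an unadjusted p below 0.05 or with edgeR or DESeq2.

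The DGAT enzymes, which complete the triglyceride, come from unrelated families, and neither gene passed. Dgat1 (chromosome 15, 76502015 to 76511953, minus strand), which encodes a multipass enzyme of the endoplasmic reticulum, measured 191 and 210.5 CPM in dermal adipocytes against 227 and 199 CPM in inguinal adipocytes. These were the closest depot means among the members, with a log2 fold change of -0.08 and a 95% confidence interval of -0.41 to 0.24 (adjusted p = 0.714). Dgat2 (chromosome 7, 99153658 to 99182719, minus strand), whose loss in mice depletes body triglyceride, measured 1712 and 1081 CPM in dermal adipocytes against 1468 and 578 CPM in inguinal adipocytes. Replicate 1 was the higher library in both depots, and inguinal replicate 2 the lowest of all. The log2 fold change was 0.56 with the widest interval of the members, -0.50 to 1.63 (adjusted p = 0.429). It was 1.23 (adjusted p = 0.00849) without inguinal replicate 1 and -0.11 (adjusted p = 0.820) without inguinal replicate 2. The ratio of Dgat2 to Dgat1 was 8.98 and 5.14 in dermal adipocytes against 6.47 and 2.91 in inguinal adipocytes, and the depots overlapped.

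Mogat1 (chromosome 1, 78510991 to 78538173, plus strand), which encodes the acyltransferase of the monoacylglycerol pathway, was the member with the lowest CPM, at 4.64 and 4.46 CPM in dermal adipocytes against 9.71 and 5.72 CPM in inguinal adipocytes. These values rest on 51, 47, 115 and 59 reads. Both inguinal libraries were above both dermal ones, but inguinal replicate 2 was nearer to the dermal libraries than to inguinal replicate 1. This amounted to a log2 fold change of -0.66 (95% confidence interval -1.35 to 0.03, adjusted p = 0.169), and it was -1.02 (adjusted p = 0.0311) without inguinal replicate 2 and -0.30 (adjusted p = 0.528) without inguinal replicate 1. A gene on the opposite strand shares 189 exon bases with Mogat1. Of the related acyltransferases, Mogat2 measured between 0.776 and 2.96 CPM (adjusted p = 0.898), and the wax synthase genes of sebaceous glands had at most 5 reads in a library, with Awat1 at most at 0.182, Awat2 at 0.455 and Dgat2l6 at 0.0969 CPM. The 4 tested genes of this list gave 0 calls, beside 16.4% of all tested genes. The count was also 0 at an unadjusted p below 0.05, beside 32.5% of all genes, and with edgeR and DESeq2.

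**Figure D3:**
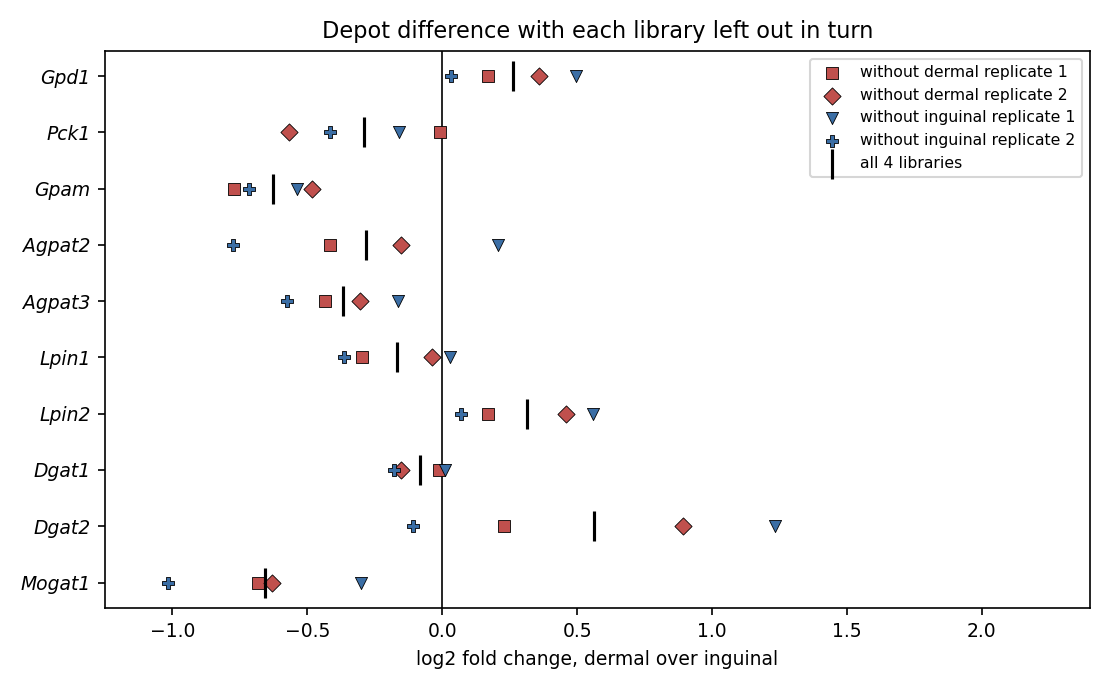
Log2 fold change, dermal over inguinal, of each enzyme gene with all 4 libraries (vertical bars) and without each library in turn (red symbols for a dermal library left out, blue for an inguinal one). Gpam, Agpat3, Mogat1 and Pck1 stay below 0 and Gpd1 and Lpin2 above 0, whereas Agpat2, Lpin1, Dgat1 and Dgat2 change sign, Dgat2 between -0.11 and 1.23.

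Levels of different members can be set side by side only per length, here as mean CPM per kilobase of exon in the GENCODE basic set. In dermal libraries the order was Gpd1 (1030), Pck1 (768), Dgat2 (618), Agpat2 (392), Dgat1 (106), Gpam (95.9), Lpin1 (86.7), Agpat3 (27.8), Mogat1 (3.70) and Lpin2 (2.83). In inguinal libraries Pck1 (924) stood before Gpd1 (867), Agpat2 (503) before Dgat2 (452), and Gpam (148) before Dgat1 (113), and the remaining order was the same. The ranges over the 4 libraries overlapped for each neighbouring pair from Gpd1 to Agpat2, and likewise among Dgat1, Gpam and Lpin1. Agpat3, from 26.6 to 41.5, lay apart from the genes above and below it, and Mogat1, from 3.62 to 7.89, lay above Lpin2, from 1.89 to 3.12. Among the acyltransferases of successive steps, Agpat2 and Dgat2 therefore had more transcript per length than Gpam or Dgat1 in every library.

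Libraries of the same replicate number moved alike for most members. Replicate 1 was above replicate 2 in both depots for 8 of the 10 genes, all except Pck1 and Dgat1, beside 30.3% of all tested genes. That share counts this direction alone. Genes with replicate 2 on top in both depots also moved alike and are not in it. Fasn, the fatty acid synthase gene named here after its values were seen, had the same pattern, at 17787 and 8561 CPM in dermal adipocytes against 19109 and 8180 CPM in inguinal adipocytes. Summed fibroblast and progenitor markers went the other way, at 4779 and 10417 CPM in dermal adipocytes against 3307 and 5547 CPM in inguinal adipocytes, with all 8 markers above 0 in every library. Most of each sum was Col3a1, and Pi16 went from 5.64 down to 4.17 CPM in dermal adipocytes. The endothelial and immediate early sums given above also rose from replicate 1 to replicate 2 in both depots, whereas the macrophage and keratinocyte sums fell. The part of these cells and genes in the pattern was not tested. The labels do not say what libraries of the same number share.

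The wider pathway was described with 10 lists of genes that surround these enzymes, which hold 75 genes of the table, of which 66 were tested. In all, 11 passed as higher in inguinal libraries and 1 as higher in dermal ones, or 18.2% called beside the 16.4% of all genes, with a median log2 fold change of -0.10. This split depended on the scaling: it was 6 inguinal to 4 dermal with quantile normalization and 6 to 2 without the authors' further scaling factor. Without the 10 members, 10 and 1 of 56 genes passed. Glycerol 3-phosphate supply and the acyl-CoA synthetases held 3 of these calls each. Endothelial markers, with log2 fold changes of -2.23 to -1.58, and brown and beige adipocyte markers, with a median of -2.15, moved in the same direction. Their part in these calls was not tested. Ppargc1a stands both among the brown and beige markers and among the inguinal calls of the pathway lists. Of the 12 calls, those of Gyk, Acsl3, Acsl4, Chka and Ppargc1a held under every alternative run. Those of Gpd2, Aqp7, Ppap2a, Acsl5 and Etnk1 ended without a filter on low values (adjusted p from 0.0516 to 0.0765) and without the intensity trend (0.0637 to 0.0961), and several ended under quantile normalization, a stricter filter, the scaling without the further factor or DESeq2.

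**Figure D4:**
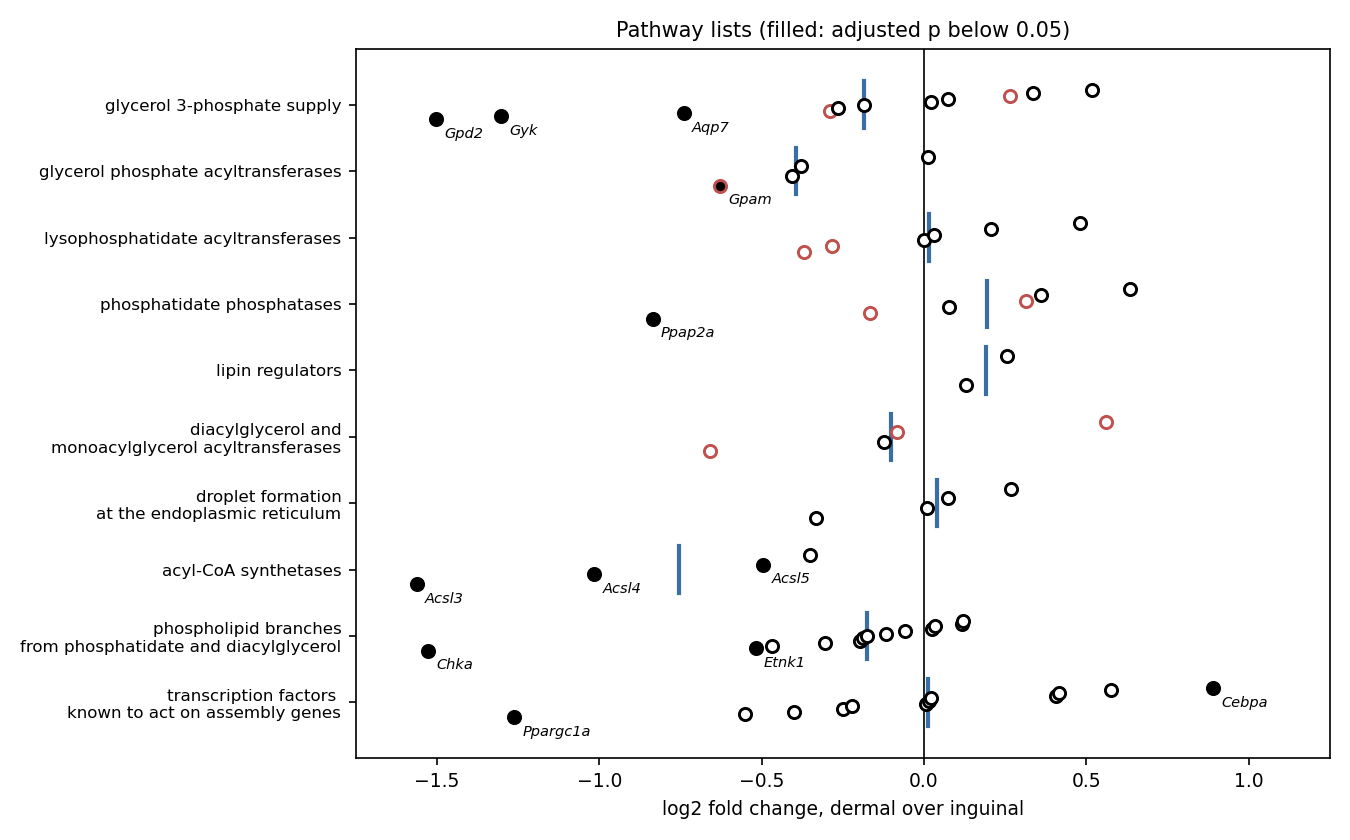
Log2 fold change, dermal over inguinal, of every tested gene of the 10 pathway lists, with red outlines for the 10 enzyme genes, filled points for an adjusted p below 0.05 and blue bars at the median of each list. Among the acyl-CoA synthetases 3 of 4 genes are filled and all 4 lie below 0, whereas the AGPAT, lipin regulator, DGAT and droplet formation lists hold no filled point.

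Of 11 tested genes of glycerol 3-phosphate supply, 3 were higher in inguinal libraries and 0 in dermal ones, or 27.3% beside 16.4% of all tested genes. The counts were 3 and 2 at an unadjusted p below 0.05, beside 32.5% of all genes, and the median log2 fold change was -0.18. With edgeR 3 were higher in inguinal and with DESeq2 2, and neither tool called a gene higher in dermal libraries. Gyk, the older symbol of the glycerol kinase gene Gk, which phosphorylates free glycerol and is scarce in white fat, measured 7.19 and 7.21 CPM in dermal adipocytes against 17.6 and 19.4 CPM in inguinal adipocytes. This 2.57-fold difference was much larger than the replicate spread (log2 fold change -1.30, SE 0.18, adjusted p = 0.00641), and it was called with each library left out. Aqp7, which encodes the glycerol channel of adipocytes and is also made by capillary endothelium, measured 88.8 and 104.6 CPM in dermal adipocytes against 136 and 192 CPM in inguinal adipocytes (log2 fold change -0.74, adjusted p = 0.0477). This call ended without dermal replicate 1 (adjusted p = 0.209), dermal replicate 2 (0.0860) or inguinal replicate 2 (0.0607). Gpd2, which encodes the mitochondrial dehydrogenase that consumes glycerol 3-phosphate and is abundant in brown fat, measured 111 and 63.8 CPM in dermal adipocytes against 349 and 164 CPM in inguinal adipocytes (log2 fold change -1.50, adjusted p = 0.0477), a call that ended without dermal replicate 2 (-1.10, adjusted p = 0.125).

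Acyl-CoA synthetases activate the fatty acids that every acyltransferase of the pathway uses. Of 4 tested genes, 3 were higher in inguinal libraries and 0 in dermal, or 75% beside 16.4% of all tested genes. The counts were the same 3 and 0 at an unadjusted p below 0.05, beside 32.5% of all genes, and with edgeR, and 2 and 0 with DESeq2. Acsl3, which encodes a synthetase found on nascent lipid droplets, measured 16.0 and 18.0 CPM in dermal adipocytes against 47.5 and 55.1 CPM in inguinal adipocytes (log2 fold change -1.56, SE 0.16, adjusted p = 0.00291). Another gene, Utp14b, overlaps Acsl3 on the same strand. Acsl4, which encodes the synthetase that prefers arachidonate, measured 39.2 and 35.7 CPM in dermal adipocytes against 79.5 and 73.0 CPM in inguinal adipocytes (log2 fold change -1.02, SE 0.13, adjusted p = 0.00593). Both calls held with each library left out, whereas the smaller difference of Acsl5 (log2 fold change -0.49, adjusted p = 0.0467) ended without dermal replicate 1 (0.176), dermal replicate 2 (0.330) or inguinal replicate 1 (0.0652). Acsl1, the main synthetase of adipocytes, had the highest CPM of the list, at 4066 and 4345 CPM in dermal adipocytes against 5941 and 4833 CPM in inguinal adipocytes, and did not pass (adjusted p = 0.325).

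The branches that turn phosphatidate and diacylglycerol into phospholipids gave 2 genes higher in inguinal libraries and 0 in dermal ones among 13, with the same counts at an unadjusted p below 0.05, with edgeR and with DESeq2. This share of 15.4% was below the 16.4% of all genes called, and below the 32.5% at an unadjusted p. Chka, which encodes the choline kinase that starts phosphatidylcholine synthesis, measured 8.19 and 6.64 CPM in dermal adipocytes against 22.9 and 21.5 CPM in inguinal adipocytes (log2 fold change -1.53, SE 0.19, adjusted p = 0.00476), and was called with each library left out. Etnk1, which encodes an ethanolamine kinase, had a log2 fold change of -0.52 (adjusted p = 0.0389), a call that ended without dermal replicate 1 (0.183), dermal replicate 2 (0.269) or inguinal replicate 1 (0.0634). Chpt1, which encodes a cholinephosphotransferase that uses diacylglycerol, had the highest CPM of its list, at 1518 and 1402 CPM in dermal adipocytes against 2482 and 1641 CPM in inguinal adipocytes, and among the libraries left out passed only without inguinal replicate 2 (adjusted p = 0.216 with all libraries and 0.0365 without it).

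Genes of droplet formation at the endoplasmic reticulum gave 0 calls among 4 tested genes with limma, edgeR and DESeq2, beside 16.4% of all tested genes with limma. At an unadjusted p below 0.05 stood 1, Tmem43, beside 32.5% of all genes. Tmem43 entered this list by its symbol alone, and a role of it in droplet formation was not tested. Bscl2, which encodes seipin, a protein that shapes budding droplets and whose human counterpart is also mutated in congenital generalized lipodystrophy, measured 333 and 266 CPM in dermal adipocytes against 279 and 219 CPM in inguinal adipocytes (log2 fold change 0.27, 95% confidence interval -0.16 to 0.70, adjusted p = 0.352). Tmem43 measured 175 ± 9.78 CPM in dermal adipocytes against 221 ± 14.5 CPM in inguinal adipocytes (log2 fold change -0.33, adjusted p = 0.127).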

How the data were processed

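The deposited table held 1 column per library with signal values that are gene counts scaled by the authors to CPM with a further factor, since the columns sum to between 960745 and 1074951. In each column 100% of values were whole multiples of the value of 1 read (within 0.001 of a read), so reads could be recovered, and the factors, 0.930 to 1.04, equal edgeR's TMM factors to the digits given. Tools named in the submitters' processing notes are TopHat2 2.0.12, featureCounts (Subread 1.4.6), Picard 1.127 and edgeR, with the mouse build mm10 and no settings. Genes with at least 1 CPM in at least 2 libraries entered a limma fit (version 3.58.1, R 4.3.3), which modelled log2(CPM + 0.5) and let the variance follow the mean level, and p-values were adjusted over all 12797 of them. A fold change on this scale understates that of low genes. Alternatives were other pseudocounts, filters and scalings, edgeR 4.0.16 and DESeq2 1.42.0 on recovered reads, each library left out, and the replicate number as a block. The fitting code was tested on simulated data. Members, lists and tests were chosen with earlier results of these data known. Besides the members, named genes were, per list, those that passed and the 2 with the highest mean; Agpat6, Gnpat, Gpat2, Mogat2, the wax synthase genes, Mlxipl, Nr1h3, Fasn and Egfl7 were named after their values were seen. Symbols were matched to GENCODE M21 through RefSeq synonyms.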

Additional observations from a re-analysis of the deposited data

How the results depend on the processing

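With all genes, 2094 passed, and 1644 to 2108 did under the other pseudocounts, filters, scalings and tools, 4726 with the replicate block, and 1023 to 2636 with 1 library left out, where the lone library is assumed to vary like the others. Among the 10 enzyme genes 1 passed, and 0 did without a filter, without the intensity trend, with quantile normalization, without the further factor and with edgeR, 4 with the replicate block, and 0 to 4 with 1 library left out. Of the pathway lists 12 genes passed, and 6 did without a filter and 6 without the intensity trend, 27 with the replicate block (8 higher in dermal, 19 in inguinal, with Srebf1, Mlxipl and Nr1h3 among the former), and 5 to 15 with 1 library left out. The cause was not tested. Same-numbered libraries deviated together across genes (correlation 0.464), but 2 pairs do not show that the numbers pair the libraries. Under the block Gpam, Agpat3, Mogat1 (higher in inguinal) and Dgat2 (higher in dermal) passed. Signs turned for Dgat1 with quantile normalization (0.10) and for Pparg with edgeR (-0.0027) and DESeq2 (-0.0095). With 1 library left out, log2 fold changes ranged from -0.78 to 0.21 for Agpat2, -0.36 to 0.029 for Lpin1, -0.18 to 0.011 for Dgat1, -0.11 to 1.23 for Dgat2, -0.10 to 0.25 for Ppap2b, -0.0040 to 0.26 for Ctdnep1 and -0.21 to 0.25 for Pparg. The log2 ratio difference ranged from 0.069 to 1.22 for Dgat2 to Dgat1, -0.20 to 0.37 for Agpat2 to Agpat3 and -0.93 to -0.18 for Pck1 to Gpd1.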

Other observations

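Transcription factors known to act on these enzyme genes were called about as often as all tested genes. Of 12 tested, 1 passed as higher in dermal libraries and 1 as higher in inguinal ones, or 16.7% beside 16.4% of all tested genes in limma. The depots did not overlap for 9 of the 12, 4 with the dermal and 5 with the inguinal libraries on top, beside 61.8% of all tested genes. Cebpa, a master regulator of fat cell differentiation, measured 339 and 410 CPM in dermal adipocytes against 223 and 180 CPM in inguinal adipocytes (limma, log2 fold change 0.89, adjusted p = 0.0173), a call that ended without dermal replicate 2 (adjusted p = 0.0984). Srebf1, Mlxipl and Nr1h3, which encode the lipogenic factors SREBP1, ChREBP and LXRα, had log2 fold changes of 0.58, 0.41 and 0.41 with every dermal library above every inguinal one, and none passed (adjusted p = 0.0720, 0.0838 and 0.0663). All 3 passed with quantile normalization (Srebf1, adjusted p = 0.0348), Mlxipl also without the authors' further scaling factor, and Srebf1 also with DESeq2 (0.0366) and without inguinal replicate 2 (0.0451). Ppargc1a, a coactivator of mitochondrial and brown fat genes, measured 14.6 and 10.7 CPM in dermal adipocytes against 29.6 and 31.9 CPM in inguinal adipocytes (log2 fold change -1.26, adjusted p = 0.00959). Pparg stood at 507 ± 30.8 and 505 ± 113 CPM (adjusted p = 0.952). Of all 12 factors 7 had positive and 5 had negative estimates. The estimates for Srebf1, Mlxipl and Nr1h3 were positive. Of the 10 enzyme genes, 7 had negative estimates, Gpam among them, and 3 had positive ones, Gpd1, Lpin2 and Dgat2. Agpat9 and Agpat6 also had negative estimates. Mlxipl, Nr1h3 and Agpat6 were named after their values were seen, and a link between these factors and the enzyme genes was not tested.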
